A study of Homo sapiens with 48 samples.

Results

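Hypoxia-response genes that do not belong to glycolysis were followed in HEK293T cells, an established human embryonic kidney line, after the cap-binding protein NCBP1 had been modified by a lipid-derived electrophile. The set was defined by name as VEGFA, ADM, CA9, NDRG1, ANKRD37, FAM162A, MXI1, BHLHE40 and TMEM45A, and a gene entered when its Ensembl identifier had a row in the tables of raw counts at 3, 6 and 12 h. Of these 9 genes, 8 had a row among the 14685 genes counted, and CA9, a carbonic anhydrase of the cell surface, is not analysed here. All cultures had been transfected with a plasmid for NCBP1 fused to Halo, a protein tag that binds chloroalkane probes, beside the cells' own NCBP1. The share of cells that took up the plasmid is not reported here. In the T-REX arm, a photocaged precursor of 4-hydroxynonenal (HNE) bound to Halo was uncaged by light, so that HNE was released at NCBP1. The controls were light alone, probe alone (the precursor without light) and DMSO (the vehicle without light), although the study's Methods list both the precursor and light for light alone, which is what they list for T-REX. RNA was taken 3, 6 and 12 h later from 4 independent replicates per arm, which gave 48 libraries. No label or method named a low-oxygen treatment.

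Total counts ran from 23952455 to 37099535 per library, and levels are given as CPM, a gene's count relative to the library total, scaled by TMM factors over all 48 libraries. Of the genes taken to mark HEK293T cells, LIN28B, CDH2, NEFM and VIM had a row, and PAX2 did not. Of 7 markers of blood, endothelium, liver, fibroblasts and keratinocytes, only COL1A1 had a row, at 2.13 to 6.07 CPM. The 3 control comparisons at a time point (values are listed in the order light alone, probe alone, DMSO) share the T-REX libraries and are therefore not independent of each other. In RNA from whole cultures, fewer cells that express a gene and less of its RNA per cell cannot be told apart.

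Hypoxia-inducible factor (HIF) joins an oxygen-sensitive alpha subunit (HIF1A or EPAS1) to the stable partner ARNT. In oxygen, the EGLN prolyl hydroxylases mark the alpha subunit for destruction through VHL. When oxygen is low, the subunit accumulates and binds the core letters ACGTG or GCGTG near its targets, among them secreted vessel factors, glycolytic enzymes, regulators of transcription and proteins of mitochondria and membranes. The genes described here are those outside metabolism.

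The 5′ flanks of 4 members are shown because 3 of them hold the HIF core letters and TMEM45A, the member called against every control at 12 h, holds none. They are the 250 bases before the transcription start on the plus strand (RefSeq, GRCh38.p14), 5′ to 3′, and capitals mark ACGTG or GCGTG on the printed strand and their complements CACGT or CACGC. The letters CACGTG are an E-box, the kind of site that BHLHE40 and MXI1 bind, and there CACGT and ACGTG overlap.
FAM162A, chr3:122383932-122384181: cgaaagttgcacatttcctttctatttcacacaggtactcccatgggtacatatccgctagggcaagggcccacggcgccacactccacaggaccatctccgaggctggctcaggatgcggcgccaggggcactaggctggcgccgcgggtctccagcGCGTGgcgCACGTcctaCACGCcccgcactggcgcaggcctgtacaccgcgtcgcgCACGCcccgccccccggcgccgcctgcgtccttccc
ANKRD37, chr4:185396591-185396840: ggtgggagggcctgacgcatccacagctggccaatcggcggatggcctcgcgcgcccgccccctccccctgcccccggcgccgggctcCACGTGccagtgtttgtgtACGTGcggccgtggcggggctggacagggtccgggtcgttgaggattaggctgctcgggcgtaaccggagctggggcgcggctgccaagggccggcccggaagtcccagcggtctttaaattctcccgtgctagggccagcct
BHLHE40, chr3:4979187-4979436: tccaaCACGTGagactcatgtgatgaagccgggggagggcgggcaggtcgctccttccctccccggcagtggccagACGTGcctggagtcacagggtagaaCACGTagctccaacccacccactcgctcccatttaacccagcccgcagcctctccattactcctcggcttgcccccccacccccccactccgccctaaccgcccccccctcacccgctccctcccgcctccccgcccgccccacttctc
TMEM45A, chr3:100492369-100492618: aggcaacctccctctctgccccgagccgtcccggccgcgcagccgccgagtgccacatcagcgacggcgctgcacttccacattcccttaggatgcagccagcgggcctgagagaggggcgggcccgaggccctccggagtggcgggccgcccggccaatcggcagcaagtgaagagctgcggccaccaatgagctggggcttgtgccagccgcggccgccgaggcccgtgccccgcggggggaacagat
RefSeq windows of 300 bases (250 before to 50 after a start) were found for 7 of the 9 genes, CA9 included and VEGFA and NDRG1 excepted, and MXI1 had 3. FAM162A held 4 matches, BHLHE40 4, ANKRD37 3, ADM 1 and CA9 1, MXI1 held 2 in each of a pair of windows and 0 in the remaining window, and TMEM45A held 0. The E-box stood in the windows of ANKRD37 and BHLHE40. Of all 35116 windows, 48.4% held the core letters on either strand and 7.26% held CACGTG, so that a match by itself is common.

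At 12 h, most of the non-metabolic targets tested were lower after T-REX than in at least 2 of the controls. NDRG1, FAM162A, MXI1, BHLHE40 and TMEM45A, 5 of 8 members, were called lower against at least 2 of the 3 controls (adjusted p of at most 0.05, edgeR's quasi-likelihood test), where 0.912% of all genes were. The members were chosen with earlier results of these data known, so such shares, here and below, are no test of the set. Against light alone 5 members were called lower, beside 0.79% of all genes. Against probe alone 3 were called, beside 0.504%, and against DMSO 3, beside 6.79%. The difference was below 0 for 8 of 8 members against each control, with median log2 fold changes of -0.41, -0.31 and -0.35, while the medians over all genes were 0.00, 0.00 and 0.00. Light alone itself lay above DMSO at 12 h for 7 of 8 members (median log2 fold change 0.13), and probe alone for 5 of 8 (0.07). In both of these comparisons 0 members were called. Leaving out 1 library at a time gave 3 to 6 members called against at least 2 controls. The count was 3 without T-REX replicate 1, 2 or 4, light alone replicate 2 or 3, probe alone replicate 1, 2 or 3, or DMSO replicate 2. Against probe alone it was 1 without any of these except light alone replicate 3, and 5 without DMSO replicate 3. Fitting the replicate number as a block gave 3 against at least 2 controls (FAM162A, MXI1 and TMEM45A).

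**Figure D1:**
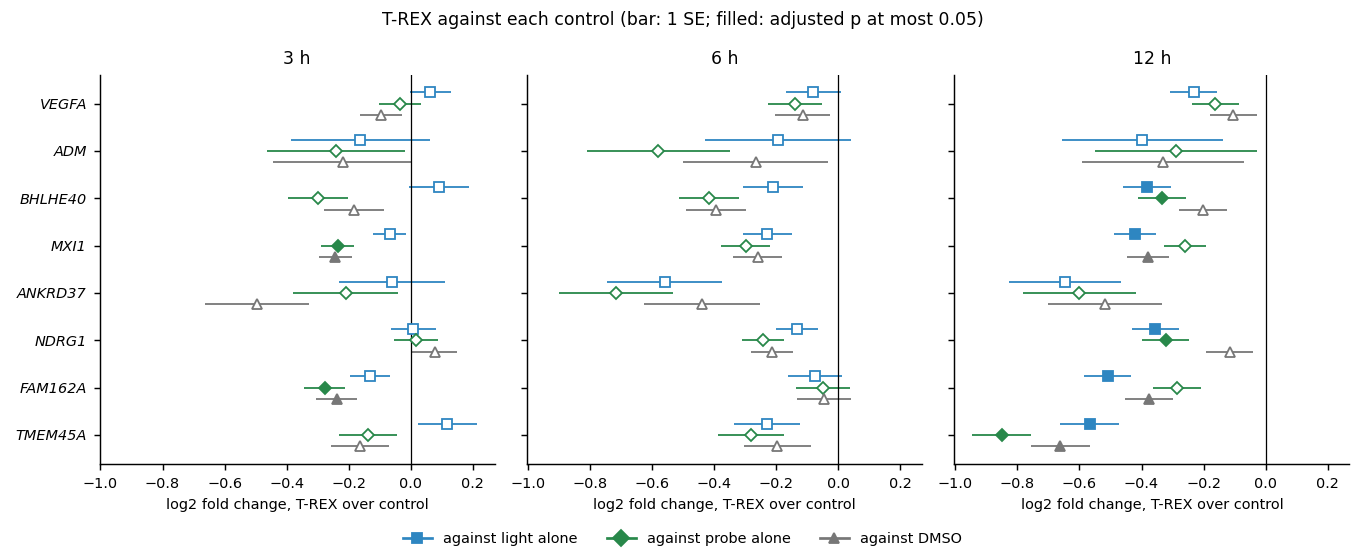
The log2 fold change of T-REX over each control (horizontal axis) is drawn for 8 members (vertical axis) at 3, 6 and 12 h; bars are 1 SE and filled symbols mark an adjusted p of at most 0.05. At 12 h every symbol lies left of 0, from -0.10 for VEGFA against DMSO to -0.85 for TMEM45A against probe alone.

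RNA of NCBP1, in which plasmid and endogenous transcripts are not separated, was itself higher at 12 h in the T-REX arm than under DMSO (log2 0.73 ± 0.13, SE; adjusted p = 0.00252). T-REX libraries held 51945 to 63933 CPM, probe alone 52800.1 to 74043, light alone 34589 to 49371 and DMSO 30797 to 40599. The T-REX and probe-alone ranges overlapped (log2 difference -0.04 ± 0.13, SE), whereas the T-REX range lay above light alone (means 57501 and 40520 CPM). At 6 h T-REX libraries held 65766 to 80149 CPM, above DMSO at 47409 to 61381 CPM, while probe alone held 64957 to 90361 CPM. At 6 h T-REX lay above light alone (0.80 ± 0.14, 0.0214), and at 3 h above DMSO (0.50 ± 0.12, 0.029). The part of NCBP1 level in the members' differences was not tested.

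VEGFA encodes the growth factor that drives the sprouting of blood vessels, and it was abundant enough for 1195 to 2283 counts per library. Its T-REX libraries at 12 h had 55.7, 60.0, 58.1 and 55.2 CPM. Light alone gave 60.3, 68.5, 69.5 and 71.2 CPM, probe alone 63.5, 64.3, 65.8 and 62.2 CPM and DMSO 55.1, 65.8, 52.8 and 72.3 CPM. All 4 T-REX libraries were below those with light alone and with probe alone, but 2 DMSO libraries lay under the highest T-REX library. VEGFA had log2 fold changes of -0.23 ± 0.08 (SE; adjusted p = 0.143), -0.16 ± 0.08 (0.421) and -0.10 ± 0.08 (0.394), so it was not called at 12 h, nor was it at 3 or 6 h. With the factors of unwanted variation that the authors deposited as covariates, or with only the 2 arms in the fit, it was called against light alone, with adjusted p-values of 0.0038 and 0.0034.

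ADM encodes adrenomedullin, a peptide that widens vessels. It was scarce, with 33 to 120 counts per library. At 12 h the T-REX libraries had 3.17, 1.36, 3.00 and 1.63 CPM, a spread that covers most of the control libraries, which ran from 1.87 to 4.08 CPM. Its log2 fold changes of -0.40, -0.29 and -0.33 each had an SE of 0.26, and the T-REX libraries alone spread by more than these differences. ADM was called against no control at any time point.

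The regulators of transcription in the set, BHLHE40 and MXI1, were both called at 12 h. BHLHE40 is a repressor that binds E-boxes and belongs to the circadian and hypoxia responses. Its T-REX libraries at 12 h had 86.5, 77.5, 93.0 and 81.0 CPM. Light alone gave 102, 109.7, 115 and 115 CPM, probe alone 115, 107, 111 and 91.8 CPM and DMSO 86.9, 97.3, 91.0 and 113 CPM. T-REX did not overlap light alone, but its highest library exceeded the lowest with probe alone and 2 DMSO libraries. T-REX over the controls gave log2 fold changes of -0.38 ± 0.08 (SE; adjusted p = 0.00768), -0.33 ± 0.08 (0.0388) and -0.20 ± 0.08 (0.0938). The call against probe alone was lost in 10 of 16 fits that left out a library, and the one against light alone in 0 of 16. With the deposited factors as covariates BHLHE40 was not called against probe alone or DMSO, and so against fewer than 2 controls. An antisense gene, BHLHE40-AS1, is counted apart, and whether the counting used strand is not given in the sources used here.

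MXI1 competes with MYC for its partner MAX and represses MYC targets. It had 63.1, 66.2, 73.8 and 65.3 CPM with T-REX at 12 h. Light alone gave 87.1, 100.2, 91.9 and 80.4 CPM, probe alone 85.2, 76.0, 82.4 and 77.1 CPM and DMSO 80.8, 92.9, 90.3 and 84.6 CPM. All 4 T-REX libraries lay below all 12 control libraries, which was also so for FAM162A and TMEM45A, 3 of 8 members, beside 1.17% of all genes. On the log2 scale the fold changes were -0.42 ± 0.07 (SE; adjusted p = 0.00094), -0.26 ± 0.07 (0.0752) and -0.38 ± 0.07 (0.000983). The calls against light alone and DMSO held in 16 of 16 fits that left out a library, and DESeq2 called probe alone as well (adjusted p = 0.024).

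ANKRD37 is a small ankyrin-repeat protein and a direct HIF1 target. It was counted 56 to 178 times per library. At 12 h its T-REX libraries had 2.66, 3.64, 3.68 and 2.42 CPM. Light alone gave 4.08, 5.41, 5.42 and 4.39 CPM, probe alone 4.68, 4.24, 5.08 and 4.65 CPM and DMSO 3.93, 5.88, 3.36 and 4.44 CPM. T-REX overlapped only the lowest DMSO library. The differences of -0.65 ± 0.18, -0.60 ± 0.18 and -0.52 ± 0.18 (log2, SE) had adjusted p-values of 0.0757, 0.147 and 0.0667, and none was called, whereas DESeq2 called ANKRD37 against light alone and DMSO, the fit with the deposited factors against all 3 controls, and the fit of 2 arms against light alone.

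NDRG1, a stress-responsive protein of the cytoplasm, had 88.7, 85.7, 101 and 84.7 CPM with T-REX at 12 h. Light alone gave 109.8, 119.8, 126 and 106 CPM, probe alone 119, 111, 111 and 109 CPM and DMSO 92.6, 98.5, 84.4 and 114 CPM. T-REX lay below light alone and probe alone without overlap, and inside the DMSO range in all 4 libraries. Its log2 fold changes were -0.36 ± 0.08 (SE; adjusted p = 0.0124), -0.32 ± 0.08 (0.0427) and -0.12 ± 0.08 (0.343). NDRG1 lost the call in 5 of 16 fits that left out a library against light alone and in 9 of 16 against probe alone.

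FAM162A, a mitochondrial protein that takes part in hypoxic cell death, had 40.9, 40.6, 44.0 and 41.2 CPM with T-REX at 12 h. Light alone gave 60.6, 64.5, 58.2 and 54.2 CPM, probe alone 53.9, 54.1, 49.0 and 45.5 CPM and DMSO 51.5, 62.1, 46.8 and 55.7 CPM. The T-REX libraries were close together and below every control library, of which the lowest had probe alone. FAM162A had log2 fold changes of -0.51 ± 0.08 (SE; adjusted p = 0.000523), -0.28 ± 0.08 (0.0943) and -0.38 ± 0.08 (0.00282). The calls against light alone and DMSO held in 16 of 16 fits that left out a library.

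TMEM45A, a multi-pass membrane protein, was the only member called against all 3 controls at 12 h. Its T-REX libraries had 12.9, 12.1, 13.3 and 12.8 CPM. Light alone gave 20.1, 20.5, 19.4 and 15.7 CPM, probe alone 24.3, 25.2, 20.8 and 21.5 CPM and DMSO 19.8, 21.97, 19.2 and 19.7 CPM. No library of any control came down to the T-REX level. TMEM45A had log2 fold changes of -0.57 ± 0.09 (SE; adjusted p = 0.00118), -0.85 ± 0.09 (1.05e-05) and -0.66 ± 0.09 (9.83e-05), and each call held in 16 of 16 fits that left out a library.

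**Figure D2:**
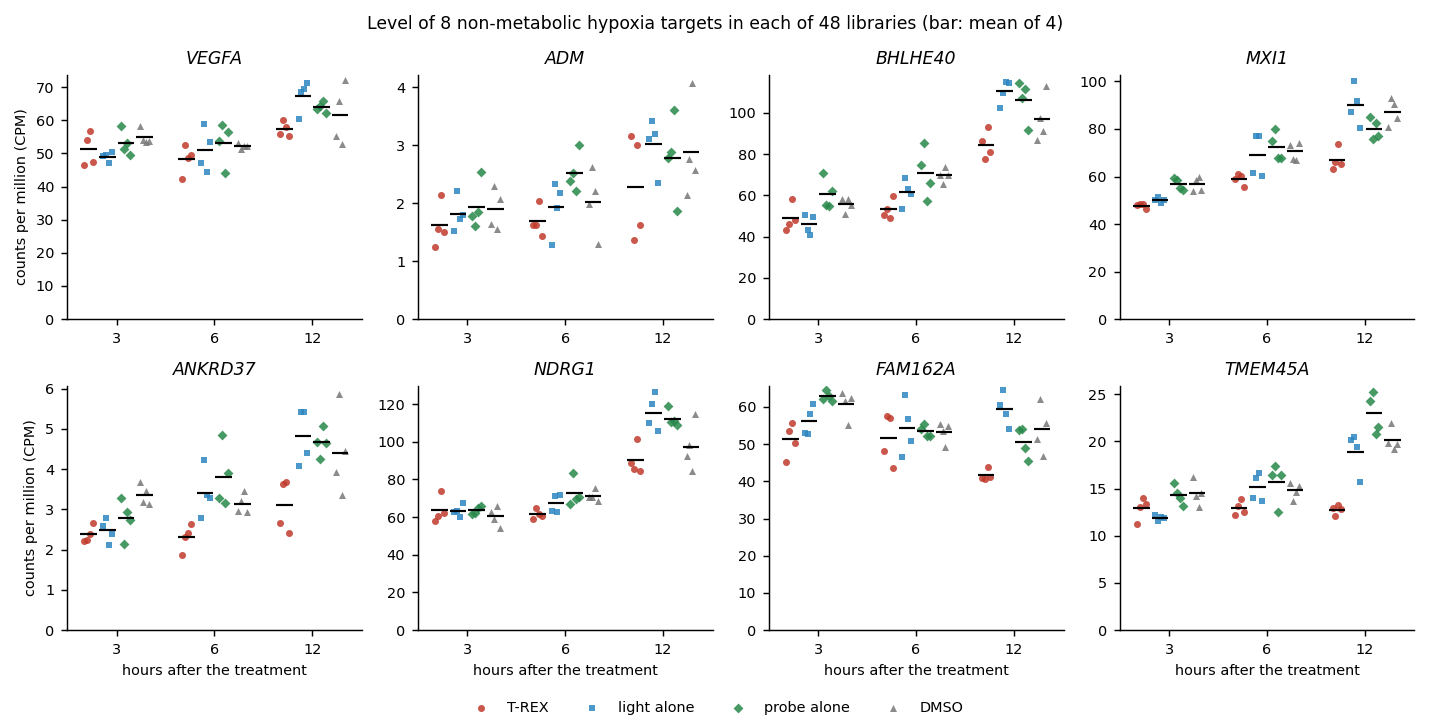
CPM (vertical axis, from 0) of 8 members in each of 48 libraries against hours after the treatment (horizontal axis), with a symbol per library, coloured by arm, and a bar at the mean of 4. At 12 h the T-REX libraries of TMEM45A sit at 12.1 to 13.3 CPM and those of FAM162A at 40.6 to 44.0 CPM, below all 12 control libraries.

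Pairwise non-overlap at 12 h was counted as well. All 4 T-REX libraries were below all 4 libraries with light alone for 7 of 8 members, ADM being the exception, beside 7.14% of all genes. With probe alone this was so for 6 members, beside 4.49%, and with DMSO for 3, beside 7.52%.

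At 3 h, the only members called were FAM162A and MXI1, both lower against probe alone and DMSO. These are 2 of 8 members against each, beside 0.81% of all genes for probe alone, 4.54% for DMSO and 0.769% for at least 2 of 3 controls. MXI1 had 48.01, 48.3, 48.5 and 46.4 CPM with T-REX at 3 h. Light alone gave 48.7 to 51.3 CPM (median 50.1), probe alone 59.5, 58.5, 55.2 and 54.5 CPM and DMSO 54.0, 58.7, 59.9 and 54.4 CPM. MXI1 alone of the members had all 4 T-REX libraries below all 12 control libraries at 3 h (1.65% of all genes), although the gap to light alone was narrow. Its differences were -0.07 ± 0.05 (log2, SE; adjusted p = 0.611), -0.24 ± 0.05 (0.0386) and -0.24 ± 0.05 (0.0104).

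FAM162A at 3 h had 45.3, 53.6, 55.7 and 50.4 CPM with T-REX. Light alone gave 53.1, 52.6, 58.1 and 60.7 CPM, probe alone 62.2, 64.5, 62.9 and 61.5 CPM and DMSO 63.6, 61.5, 55.2 and 62.3 CPM. T-REX was below probe alone without overlap and overlapped light alone and DMSO. The differences were -0.13 ± 0.07 (log2) from light alone, -0.28 ± 0.07 (SE; adjusted p = 0.0443) against probe alone and -0.24 ± 0.07 (0.0344) against DMSO. Leaving out 1 library lost the call against probe alone in 9 of 16 fits for FAM162A and 7 of 16 for MXI1, and that against DMSO in 5 of 16 and 0 of 16. Against at least 2 controls 0 remained called without T-REX replicate 2 or 4, probe alone replicate 1, 2 or 3, or DMSO replicate 1 or 2, and 1 without T-REX replicate 1, light alone replicate 1 or DMSO replicate 4. All of these calls were lost when only the 2 arms compared were fitted.

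Against light alone, 0 members were called at 3 h by edgeR's quasi-likelihood test, beside 0.116% of all genes called lower, and 0 by DESeq2. At an unadjusted p not above 0.05 against light alone there were 0 members, beside 2174 of all 14685 genes. There 4 members were above 0 and 4 below, with a median log2 fold change of -0.03, whereas 7 of 8 were below 0 against probe alone (median -0.22) and against DMSO (median -0.20). Light alone was itself below DMSO for 7 of 8 members at 3 h, with 0 called. The unadjusted p was not above 0.05 for 5 members, beside 1143 of all 14685 genes. Below all 4 libraries of a control lay 1 member for light alone (4.56% of all genes), 2 for probe alone (6.48%) and 2 for DMSO (7.0%).

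At 6 h, 0 members were called against any control by edgeR's quasi-likelihood test, where 0.0953%, 0.0885% and 0.238% of all genes were called lower, and 0.0817% against at least 2 of 3 controls. An unadjusted p not above 0.05 was found for 4, 6 and 4 members, beside 1711, 964 and 1826 of all 14685 genes. DESeq2 called 0, 2 (ANKRD37 and BHLHE40) and 1 (BHLHE40), and its shares of all genes are not given here. The sign was negative for 8 of 8 members against each control, with medians of -0.20, -0.29 and -0.24 on the log2 scale. T-REX lay below all 4 libraries of light alone for 1 member (2.83% of all genes), of probe alone for 4 (3.3%) and of DMSO for 4 (3.47%).

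ANKRD37 had 1.87, 2.32, 2.42 and 2.65 CPM in the T-REX libraries at 6 h. Light alone gave 2.78, 4.22, 3.35 and 3.28 CPM, probe alone 3.28, 4.85, 3.17 and 3.902 CPM and DMSO 2.96, 3.20, 3.45 and 2.92 CPM. All 4 T-REX libraries were below all 12 control libraries, for ANKRD37 only among the members and for 0.422% of all genes. The differences were -0.56 ± 0.19 (log2, SE; adjusted p = 0.245), -0.72 ± 0.18 (0.189) and -0.44 ± 0.19 (0.327). With the deposited factors as covariates, 2 members were called against light alone at 6 h (ANKRD37 and MXI1), 3 against probe alone (ANKRD37, MXI1 and NDRG1) and 3 against DMSO (BHLHE40, MXI1 and NDRG1). The shares of all genes called in that fit are not given here, so these counts have no background beside them.

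Among the controls, 0 members were called at any time point in any of the 9 comparisons by edgeR's quasi-likelihood test. At an unadjusted p not above 0.05 there were 0 to 5 members, beside 751 to 3422 of all 14685 genes. DESeq2 called 1 (BHLHE40, 3 h, light alone below probe alone). Of all genes, 0.00681%, 0.00681% and 0.232% were called at 3 h between light alone and DMSO, probe alone and DMSO, and light and probe alone. The shares were 0.00681%, 0.0272% and 0.0613% at 6 h, and 0.0136%, 5.11% and 0.415% at 12 h. With the deposited factors as covariates, BHLHE40, MXI1 and TMEM45A were called between light alone and either other control at 3 h, NDRG1 between DMSO and either other control at 12 h, and FAM162A and TMEM45A between light and probe alone at 12 h. The shares of all genes in that fit are not given here.

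Between 3 and 12 h, BHLHE40, MXI1 and NDRG1 rose in all 4 arms, whereas TMEM45A rose in the 3 control arms and was not called in the T-REX arm. The time points were deposited in separate tables of counts, so that time and any difference in their handling cannot be told apart. From 3 to 12 h, 4 members were called in the T-REX arm (3 higher, 1 lower), 7 under light alone (all higher), 7 under probe alone (6 higher, 1 lower) and 5 under DMSO (all higher). Of all genes, 41.7%, 39.4%, 42.3% and 38.8% were called in these arms. BHLHE40 rose by 0.79 ± 0.10 (log2, SE) with T-REX and by 1.26 ± 0.10, 0.80 ± 0.10 and 0.80 ± 0.10 in the controls. NDRG1 rose by 0.50 with T-REX and by 0.87, 0.82 and 0.69 in the controls, and MXI1 by 0.49 and by 0.84, 0.49 and 0.62. FAM162A fell by 0.30 with T-REX (adjusted p = 0.00276) and by 0.31 with probe alone (0.0017), and was not called with light alone (0.08) or DMSO (-0.17).

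TMEM45A had 11.3, 13.0, 14.0 and 13.4 CPM with T-REX at 3 h. At 3 h light alone gave 12.2, 11.6, 12.0 and 11.9 CPM, probe alone 15.6, 14.5, 14.0 and 13.2 CPM and DMSO 16.2, 14.2, 13.0 and 14.5 CPM. At that time T-REX overlapped probe alone and DMSO, and 3 of its 4 libraries were above light alone. By 12 h the controls had risen by 0.67 ± 0.09, 0.68 ± 0.09 and 0.48 ± 0.09 (log2, SE), each called, while T-REX differed by -0.02 ± 0.09 (adjusted p = 0.9). The difference between the 12 h and the 3 h effects of T-REX was -0.69 ± 0.13 against light alone (adjusted p = 0.0421), -0.70 ± 0.13 against probe alone (0.0227) and -0.49 ± 0.13 against DMSO (0.139). TMEM45A was 1 of 8 members called lower in each of the first pair, beside 0.0204% and 0.00681% of all genes. Of the 16 fits that left out a library of the arms and times compared, 12 lost the call against light alone and 7 that against probe alone, with log2 differences of -0.77 to -0.65 and -0.76 to -0.65. Within those 16, light alone stayed called without T-REX replicate 1 or 4 at 3 h, T-REX replicate 3 at 12 h or light alone replicate 4 at 12 h. Within the same 16, probe alone was not called without T-REX replicate 3 or 4 or probe alone replicate 2 at 3 h, or T-REX replicate 2 or 3 or probe alone replicate 1 or 2 at 12 h. Leaving out 1 of the 32 other libraries, which share the estimate of spread, lost the call in 9 fits against light alone and in 0 against probe alone. Against DMSO edgeR's quasi-likelihood test and DESeq2 called 0 members for this change, and edgeR called 0.0% of all genes lower. At an unadjusted p not above 0.05 in edgeR there was 1 member, beside 1425 of all 14685 genes. Between 3 and 6 h both tools called 0 members, and edgeR called 0.0%, 0.0% and 0.0136% of all genes. At such an unadjusted p there were 2, 2 and 1 members, beside 671, 1204 and 2259 of all genes.

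**Figure D3:**
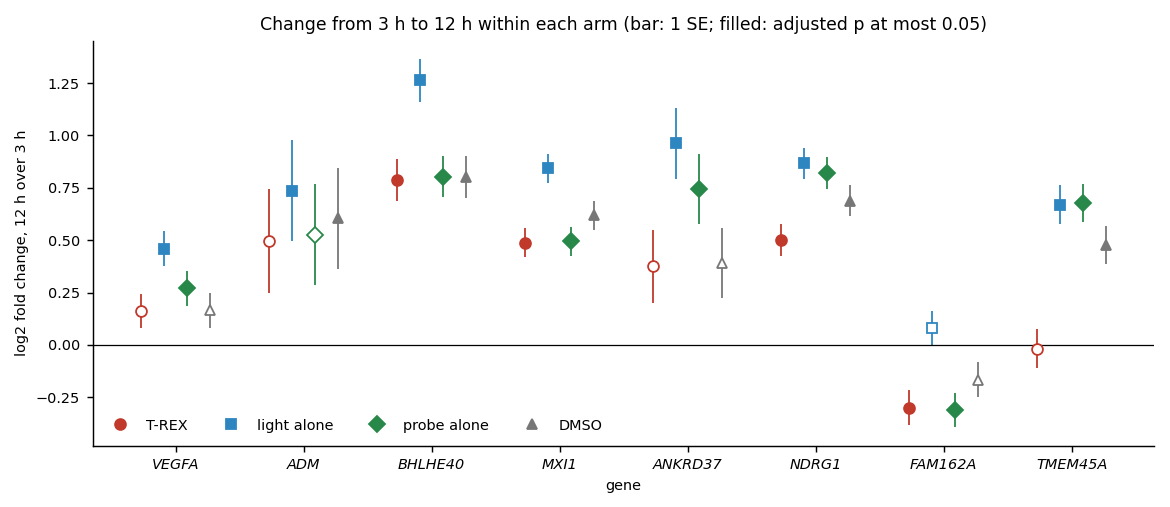
The log2 fold change of 12 h over 3 h (vertical axis) for 8 members (horizontal axis) in each arm, with bars of 1 SE and filled symbols at an adjusted p of at most 0.05. TMEM45A lies at -0.02 with T-REX and between 0.48 and 0.68 in the controls.

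Other genes of the hypoxia response were counted from lists by role, also chosen with earlier results of these data known. Of 20 glycolytic targets with a row, 9 were called lower against at least 2 of 3 controls at 12 h and 0 higher, with medians of -0.37, -0.43 and -0.37. By that rule 0.912% of all genes were called lower. They include LDHA, which makes lactate, at -0.69, -0.63 and -0.72, and the glucose transporter SLC2A1 at -0.69, -0.50 and -0.45. The kinases PFKFB3, which raises the flux of glycolysis, PDK1 and PGK1 were the others with the largest differences, PFKFB3 at -0.71, -0.58 and -0.48. PDK1 was the single glycolytic target called lower against 2 controls at 3 h, where 0.769% of all genes were called lower against at least 2.

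Of 26 further targets with a row, 8 were called lower against at least 2 controls at 12 h and 0 higher, with medians of -0.27, -0.24 and -0.13. The share of all genes called lower by that rule was 0.912%. STC1, a secreted glycoprotein hormone, had log2 fold changes of -1.36, -0.99 and -1.06, the second not called (adjusted p = 0.063). The chemokine receptor CXCR4 had -1.04, -0.78 and -1.10, and the mitophagy receptor BNIP3 -0.81, -0.89 and -0.78. PLOD2 and P4HA1, which hydroxylate collagen, had -0.62, -0.64 and -0.79, and -0.56, -0.52 and -0.60. At 3 h, 4 of this list (BNIP3L, KDM3A, PLOD2 and CXCR4) were called lower and 1 (STC2) higher, and at 6 h 2 (KDM3A and STC1) lower. The shares of all genes called lower were then 0.769% at 3 h and 0.0817% at 6 h. Against each control singly at 3 h, 12, 35 and 213 of all 14685 genes were called higher.

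Of 16 regulators of the HIF pathway with a row, 1 was called lower against at least 2 controls at 12 h, beside 0.912% of all genes. This was EGLN3, a prolyl hydroxylase that is itself a HIF target, at -0.57 (adjusted p = 0.00958), -0.70 (0.00266) and -0.74 (0.000357). Against DMSO alone at 12 h, HIF1A had a log2 fold change of -0.22 (adjusted p = 0.0242), the hydroxylase EGLN1 -0.56 (0.0284) and CITED2, a HIF-induced inhibitor of HIF, -0.65 (0.00072), and ARNT2 0.35 (0.0125). HIF1A had -0.11 against light alone (0.463) and 0.02 against probe alone (0.945). Of 21 relatives of the members with a row, such as other NDRG, VEGF and carbonic anhydrase genes, 0 were called against at least 2 controls at any time point, and DMSO alone at 12 h gave CA2 (-0.40) and NDRG3 (-0.19) lower and NDRG4 (0.31) higher. Against DMSO at 12 h, 6.79% of all genes were called lower and 4.09% higher, beside 2 and 1 of the 21 relatives and 4 and 1 of the 16 regulators.

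**Figure D4:**
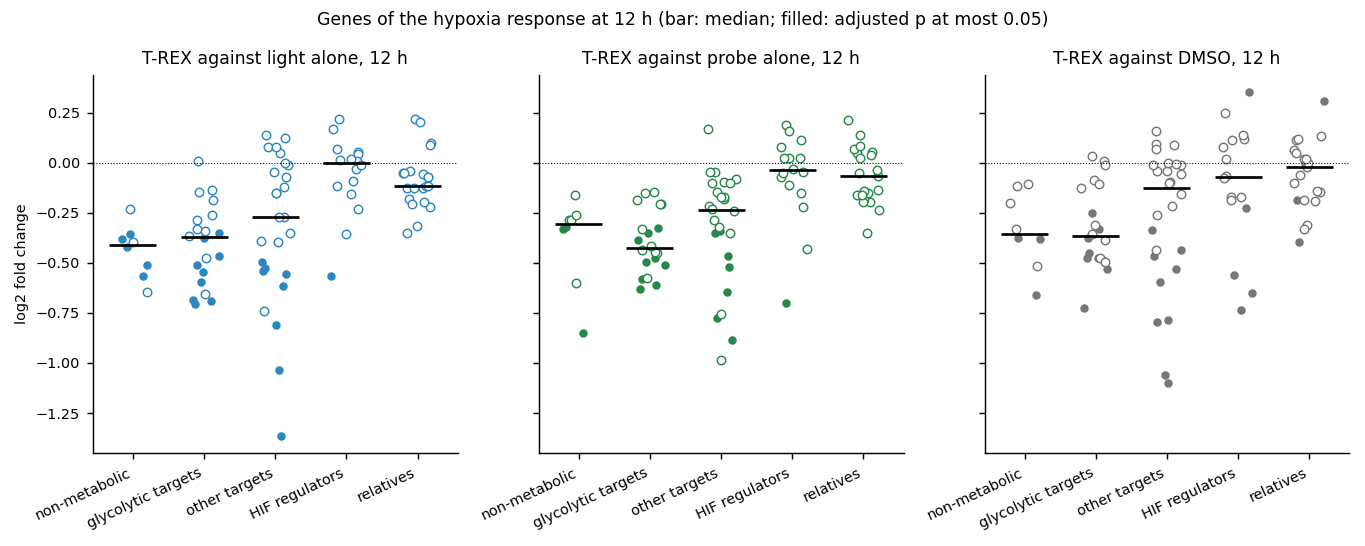
The log2 fold change of T-REX over each control at 12 h (vertical axis) for the genes of 5 lists (horizontal axis), with a symbol per gene, filled at an adjusted p of at most 0.05, and a bar at the median. The medians of the non-metabolic and glycolytic targets lie between -0.31 and -0.43, those of the other targets between -0.13 and -0.27, and those of the HIF regulators between -0.00 and -0.07.

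Each member was compared with the mean profile of all 8 members, of which it is a part, which raises its r here and below. Across the 12 means of arm and time point, 7 of 8 members had a Pearson's r of 0.90 to 0.97. FAM162A had an r of 0.11. The 5 other genes most like that profile were NRN1, BNIP3, KDM3A, SLC2A1 and PFKFB4, with an r of 0.95 to 0.97. Once the mean of each time point was removed, which leaves the differences between arms, FAM162A reached an r of 0.85, and the members ranged from 0.80 to 0.95. The most similar genes were then PFKFB3, PDK1, BHLHE40-AS1, BNIP3 and NRN1, with an r of 0.94 to 0.99. The second set was chosen after its values were seen, and BHLHE40-AS1 shares its place in the genome with BHLHE40. These are descriptions over 12 points that share libraries and scaling.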

How the data were processed

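RNA-seq of 48 HEK293T libraries (4 arms at 3 time points, 4 libraries each) was analysed. The authors deposited raw counts per gene for each time point. They also deposited 2 factors of unwanted variation, a score per library, and normalized log2 tables that were not used here. Stranded TruSeq libraries were sequenced and demultiplexed with bcl2fastq (the submitters' processing notes). The study's Reporting Summary lists cutadapt, TopHat and Cufflinks, and the build behind the counts is not given in the sources used here, nor is the treatment of strand or shared reads. Symbols were matched for 14648 of 14685 identifiers.

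Counts were fitted with edgeR 4.0.16 in R 4.3.3 (TMM, filterByExpr, robust dispersions and quasi-likelihood F-tests). The filter removed 0 genes. One model held the 16 libraries of each time point, and another all 48 for comparisons between time points. P-values were adjusted by Benjamini-Hochberg over all genes, and an adjusted p of at most 0.05 was called. Log2 fold changes are T-REX minus control unless stated. Replicate libraries differed by more than counting error. Alternatives were DESeq2 1.42.0, RLE factors, no filter, a replicate block, the deposited factors as covariates, fits of the 2 arms compared and leaving out each library. Those for 12 h against 3 h within an arm, for 6 h minus 3 h, and the covariates and filter between controls were added after seeing the data. The code was tested on simulated data. Depth was 23952455 to 37099535 counts per library, and ADM and ANKRD37 had the fewest counts of the members.

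The members and gene lists were chosen with earlier results of these data known. From the lists, up to 5 genes called against at least 2 of 3 controls were named by their mean difference at 12 h, with relatives that were called. Of single genes outside the rule, regulators called against DMSO alone, and KDM3A, BNIP3L and STC2, were named after their values were seen. Of the cell line's markers, 1 is not reported here. Promoter sequences are from RefSeq (GRCh38.p14). Figures were drawn with Python 3.11.15.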

Additional observations from a re-analysis of the deposited data

Results flagged for a closer look

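TMEM45A was picked out because the effect of T-REX differed between time points in the test of the difference itself. The effect against light alone was lower at 12 h than at 3 h by a log2 difference of -0.69 ± 0.13 (SE; adjusted p = 0.0421, edgeR's quasi-likelihood test), and that against probe alone by -0.70 ± 0.13 (0.0227). Against DMSO the difference was -0.49 ± 0.13 (0.139) and was not called.

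VEGFA in the DMSO libraries at 3 h was picked out because replicate 1, at 58.3 CPM, stood apart from the other 3, at 53.4 to 53.9 CPM. The gap was 0.898 of the range on the log2 scale, above Dixon's critical value of 0.829 for 4 samples. It was 1 of 96 groups of 4 libraries examined, and chance gives about 1 in 20.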

How the results depend on the processing

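RLE factors gave the counts of members called that TMM gave. The filter on low counts removed 0 genes, so leaving it out repeated the same fit and tests nothing. DESeq2 called 5 members against probe alone at 12 h in place of 3, and at 6 h 2 against probe alone, 1 against DMSO and 1 against at least 2 controls in place of 0. It called 1 between light and probe alone at 3 h. With the deposited factors as covariates, 4 were called against DMSO at 3 h (2 without them), 2 (light alone), 3 (probe alone) and 3 (DMSO) at 6 h, 3 against at least 2 controls at 6 h, and 5 against probe alone at 12 h. Between controls that fit called 3 (light alone against DMSO) and 3 (light alone against probe alone) at 3 h, and 1 (light alone against DMSO), 1 (probe alone against DMSO) and 2 (light alone against probe alone) at 12 h. With only the 2 arms compared, 0 were called against probe alone, DMSO or at least 2 controls at 3 h, 1 against probe alone, 2 against DMSO and 1 against at least 2 controls at 6 h, 5 against probe alone at 12 h, and 1 between light and probe alone at 12 h. The shares of all genes called in these alternative fits are not given here. The counts therefore do not separate a move of the members from a move of calls over all genes. The cause of these moves was not tested.

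With the replicate number as a block, 1 member, TMEM45A, was called against probe alone at 12 h and 3 against at least 2 controls, and no other count moved by over 1.5 times. Same-numbered libraries of different arms had a median r of 0.0018 over 72 pairs, 31 of them above 0.1, and other libraries a median r of -0.0016 over 216 pairs, 64 of them above 0.1. Of 72 comparisons, 25 had the highest r with the same number. Since not every same-numbered pair exceeded 0.1, the numbers were not taken to pair the samples, though this rule cannot exclude a partial pairing.

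Leaving out 1 library gave 4 to 7 members against light alone, 1 to 5 against probe alone and 3 to 4 against DMSO at 12 h. It gave 0, 0 to 1 and 0 to 1 at 6 h, and 0, 0 to 3 and 1 to 2 at 3 h. Against at least 2 controls it gave 0 to 2 at 3 h, 0 to 1 at 6 h and 3 to 6 at 12 h. For the change of effect between 3 and 12 h it gave 0 to 1 against light alone and 0 to 1 against probe alone. Between controls it gave 0 to 1 for light alone against probe alone at 3 h and 0 to 1 for each pair at 12 h. Of 1200 values refitted in this way, 10 changed sign, none of them called. They ran from -0.0724 to 0.0502 (light alone), -0.0635 to 0.059 (probe alone) and -0.0034 to 0.1255 (DMSO) for NDRG1 at 3 h, -0.0073 to 0.1458 for BHLHE40 against light alone at 3 h, -0.0924 to 0.0117 for VEGFA against probe alone at 3 h, and -0.106 to 0.0234 (probe alone) and -0.1022 to 0.0272 (DMSO) for FAM162A at 6 h. ADM and ANKRD37 had the fewest counts of the members.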

Other observations

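Within arms, the members also varied together from library to library. After the mean of each arm and time point was removed, Pearson's r over 48 libraries was positive for 28 of 28 pairs of members, from 0.093 to 0.65 with a median of 0.37. These points share the depth and scaling of each library. Pairs of other genes were not examined, so this is not shown to be particular to the members. With the second of the deposited factors of unwanted variation the members had an r of 0.063 to 0.36, and with the first -0.25 to 0.12. Over the 12 means of arm and time point, 24 of 28 pairs were positive, and the 4 others all held FAM162A.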
